A study of Mus musculus with 18 samples.

Results

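Matrix metalloproteinase (Mmp), Adamts, Adamts-like (Adamtsl), and tissue inhibitor of metalloproteinase (Timp) genes were followed in the denervated and the sham whisker pad of the mouse. They were taken as every protein-coding gene whose symbol is 1 of these names followed by a digit. Of 35150 genes, 50 met this rule: 22 Mmp, 19 Adamts, 5 Adamtsl, and 4 Timp genes. The 38 with a mean of at least 0.5 TPM over all samples, 15 Mmp, 14 Adamts, 5 Adamtsl, and 4 Timp genes, are described. TPM is the abundance of a transcript scaled for its length and for sequencing depth, and it was summed over the transcripts of a gene. Adamts18 lay just above the limit at 0.532 TPM and Adamts8 just under it at 0.492 TPM.

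Biopsies of skin and muscle were taken from both rostral whisker pads of 9 mice, 3 at each of days 1, 3, and 7 after surgery. On the right (denervated) side the facial nerve, which drives the whisker muscles, had been cut at its buccal and superior marginal branches. On the left (sham) side the skin was opened and closed again over an intact nerve. The 18 samples thus form 6 groups of 3, with the same 3 mice on both sides at a day and different mice at different days. The lesion was always on the right, so side and lesion cannot be told apart, and the sham side belonged to a mouse that was itself injured. The mice of a day are numbered 1 to 3. At day 7 the sample titles number the mice otherwise than the labels of the values do. They were matched by day, side, and library number, and the numbers used here are those of the values. The study used mice of both sexes, and the strain and genotype of these 9 are not given in the sources used here.

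Matrix metalloproteinases are zinc enzymes, secreted or anchored in the cell membrane, that cut collagens, gelatin, and other proteins of the extracellular matrix. Adamts enzymes are secreted relatives that carry thrombospondin repeats and trim proteoglycans and procollagens. Adamtsl proteins share the repeats but have no protease domain. Timp proteins bind the active site of these enzymes and block it. Both skin wounds and denervated muscle are settings in which the matrix is known to be remodeled.

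Skin and muscle were both present in every sample, since the summed TPM of 12 muscle fiber markers ranged from 6168 to 36130 and that of 8 epidermis markers from 4516 to 9489. Muscle markers were lowest on both sides of mouse 1 at day 1, at 6168 on the sham side and 9083 on the denervated side, while the other 16 samples were at 18000 or more. The nerve lesion was visible in 6 genes that muscle turns on when it loses its nerve, with summed levels of 62.1 to 954 TPM on the denervated side and 34.2 to 81.1 TPM on the sham side and a higher level on the denervated side in 9 of 9 mice. The summed level of 8 neutrophil markers was also higher on the denervated side in 9 of 9 mice, at 98.0 to 2660 TPM against 25.9 to 965 TPM. S100a8 and S100a9, which injured epidermis can also express, made up most of that sum, and the defining marker Ly6g stayed between 0 and 1.11 TPM in all samples. In such bulk samples fewer cells of a type and less RNA per cell cannot be told apart. Depth, estimated from the steps between low values of long transcripts, was 10300000 to 32200000 reads with a median of 14300000 reads.

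A group of Mmp genes sits side by side in a cluster on chromosome 9, where their promoters can be read next to each other. In build GRCm38 the cluster spans chr9:7272514-7699585, 427 kb with 9 member genes in the order Mmp13, Mmp12, Mmp1b, Mmp3, Mmp10, Mmp8, Mmp27, Mmp20, and Mmp7. RefSeq promoter windows (GRCm38.p6, 250 bases before to 50 after the start of the gene) were matched by symbol for 35 of the 50 members, 26 of them among the 38 described. The binding motif of AP-1, a transcription factor known for switching on Mmp genes in wounds, was searched on both strands as TGANTCA. It was found in 7 of the 9 genes of the cluster and in 0 of the 26 other members with a window, where 7.0% of 20142 windows of protein-coding genes held it. Only this form of the motif was searched, so a window without a match may still hold another form of the site. TATAAA, the core of the TATA box, was searched on both strands anywhere in the window. It was in 28.9% of the member windows and in 12.1% of all windows. Its distance from the start was not restricted, so these shares count the string and not placed TATA boxes. The 100 bases before the start are shown for 4 cluster genes with the motif and for Timp1, the inhibitor that the comparison of sides turns on, which has no match in its window. Capitals mark TGANTCA, and all 5 run 5′ to 3′ on the strand of the gene.
Mmp3: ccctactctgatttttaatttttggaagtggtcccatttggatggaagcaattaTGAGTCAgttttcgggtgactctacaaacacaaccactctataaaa
Mmp10: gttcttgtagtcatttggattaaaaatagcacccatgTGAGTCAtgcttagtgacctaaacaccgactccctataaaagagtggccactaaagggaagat
Mmp13: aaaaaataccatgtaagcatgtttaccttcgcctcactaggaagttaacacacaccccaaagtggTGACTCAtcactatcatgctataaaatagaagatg
Mmp12: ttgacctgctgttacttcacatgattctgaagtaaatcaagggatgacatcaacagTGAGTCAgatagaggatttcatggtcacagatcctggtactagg
Timp1: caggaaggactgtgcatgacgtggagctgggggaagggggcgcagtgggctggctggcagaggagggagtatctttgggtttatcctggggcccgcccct
The stretches are chr9:7445722-7445821 for Mmp3, chr9:7502242-7502341 for Mmp10, chr9:7272414-7272513 for Mmp13, chr9:7347274-7347373 for Mmp12, where it precedes the second of 2 RefSeq starts, and chrX:20870066-20870165 for Timp1, all on the + strand. The motif begins 46 bases before the start of Mmp3, 63 before that of Mmp10, 35 before that of Mmp13, and 44 before that of Mmp12. These genes did not share a level, since Mmp3 averaged 28.2 TPM, Mmp12 3.24 TPM, Mmp13 0.705 TPM, and Mmp10 0.151 TPM over the 18 samples.

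Expression of the families was concentrated in a few genes. Mmp2, a gelatinase made by fibroblasts, had the highest mean at 125 TPM, followed by Timp3 at 114 TPM and Timp2 at 91.4 TPM, and these 3 genes made up 52.0% of the summed level of all 50 members. Mmp14, the membrane-bound activator of pro-Mmp2, followed at 49.0 TPM, and then Adamtsl4 at 41.8, Adamtsl5 at 33.4, Mmp3 at 28.2, Timp1 at 22.9, Mmp11 at 19.8, and Adamts10 at 12.95 TPM. The first 10 genes made up 84.8%. By family, Mmp genes held 40.8% of the sum, Timp genes 36.7%, Adamtsl genes 13.2%, and Adamts genes 9.3%. The order of Mmp2, Timp3, and Timp2 was not fixed, as their ranges of 55.2 to 169, 66.1 to 185, and 50.1 to 129 TPM overlapped. Of the 12 members under the limit, Adamts8 ranged from 0.168 to 1.04 TPM, Mmp25 from 0.114 to 0.720, Adamts19 from 0.0804 to 0.614, Adamts13 from 0.0189 to 0.47, Adamts3 from 0.0358 to 0.364, Mmp24 from 0.0280 to 0.173, and Adamts16 from 0.0141 to 0.147. Mmp10 reached 0.562 TPM, Mmp7 0.364, Mmp1b 0.313, Mmp21 0.0659, and Mmp20 0.0605, and these 5 had samples at 0. Only Adamts8 among the 12 reached 1 TPM in any sample, where 1 read of a transcript of 2000 bases is worth 0.0179 to 0.0634 TPM by the depth estimate.

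**Figure D1:**
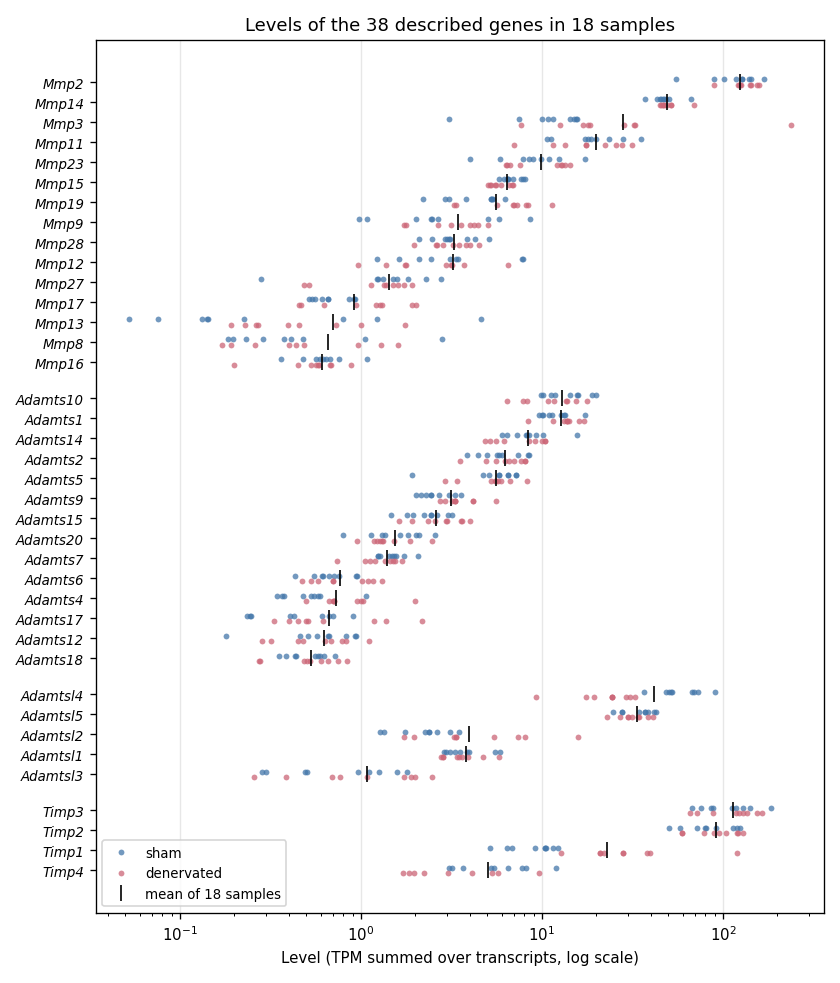
Level of the 38 described genes in TPM (log axis) in 9 sham and 9 denervated samples, each point 1 sample and each bar the mean of 18 samples, sorted by family. Mmp2, Timp3, and Timp2 lie highest, the points of the 2 sides lie apart for Timp1 and Adamtsl4, and Mmp3 has 1 denervated sample at 237 TPM.

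Much of the TPM of some members lay on transcripts that the annotation does not call protein-coding. Of the 38 described genes, 19 had at least 90% of their level on protein-coding transcripts, among them all 4 Timp genes, Mmp3, Mmp19, and Mmp15. In 11 genes the share was under 50%. All of Adamtsl5 was assigned to retained-intron and processed transcripts, and the coding share was 3.05% in Adamts10, 3.89% in Mmp12, 10.96% in Adamtsl2, 27.6% in Mmp9, and 46.9% in Adamtsl4. The other 5 were Mmp16, Adamtsl1, Adamts7, Adamts6, and Adamts18, at 30.3% to 43.0%. Some exons also overlap a gene on the opposite strand, which a library that does not mark strand cannot separate: those of Timp3 with Syn3, Timp4 with Syn2, Mmp11 with Chchd10, Mmp12 with Mmp1b, and Adamts7 with Tbc1d2b, besides non-coding or unnamed genes at Mmp19, Mmp28, and Adamts9.

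The study asks what denervation changes in the whisker pad, and few of these genes passed the test between sides. Over all days, with the day as a term, limma tested 29 members after a filter on low values, and 2 passed a Benjamini-Hochberg adjusted P of 0.05: Timp1 was higher and Adamtsl4 was lower on the denervated side. Among all 14757 genes tested 3.1% passed. Under an unadjusted P of 0.05 were 8 of the 29 members over all days, and 14.7% of all genes. At day 3 alone, 1 of 29 members passed, again Timp1, against 1.45% of all genes tested, and 4 members were under an unadjusted P of 0.05, as were 14.7% of all genes. At day 1 limma called 0 of 29 members, against 0% of 14776 genes, and 5 members were under an unadjusted P of 0.05, as were 4.29% of all genes. At day 7 it called 0 of 32, against 1.53% of all genes in either direction and 0.511% lower, and 8 members were under an unadjusted P of 0.05, as were 12.3% of all genes. Of the 8 at day 7, Mmp17 and Adamts17 were tested only because their denervated values met the filter. In paired fits with the mouse as a block, limma called 0 members at day 1, 1 at day 3, 2 at day 7 (Timp1 and Adamtsl4), and 3 over all days (Timp1, Adamtsl4, and Mmp19). The shares of all genes given above are from the main fits. They cannot be set against these paired counts, which therefore do not show more calls among members than among all genes. The median log2 fold change of the tested members was 0.06 at day 1, −0.04 at day 3, 0.24 at day 7, and 0.06 over all days, and that of all genes tested was 0.01, −0.01, 0.04, and 0.01. In the test of whether the difference between sides itself changed between days, 0 of 29 members passed in limma for any pair of days, against 0.122% of genes for day 3 against day 1, 0.163% for day 7 against day 1 (0.0339% in the direction of a lower difference at day 7), and 0% for day 7 against day 3. At unadjusted P under 0.05 these 3 tests held 1, 2, and 0 members, and 9.22%, 7.14%, and 6.86% of all genes.

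Counted by mouse, 2 of the 29 members tested over all days were higher on the denervated side in 9 of 9 mice, Timp1 and Mmp3, where 1.94% of all genes were. Adamtsl4 was the 1 member lower in 9 of 9, where 1.42% of all genes were. Groups that did not overlap were counted at each day. At day 1, 3 tested members lay wholly above the sham group (Timp1, Adamts9, Adamtsl2), against 5.61% of genes, and 3 wholly below it (Adamtsl4, Timp4, Mmp15), against 3.95%. At day 3, 3 lay above (Timp1, Mmp19, Mmp3), against 11.7% of genes, and 1 below (Adamtsl4), against 9.82%. At day 7, 10 of 32 lay above (Timp1, Mmp2, Mmp3, Mmp17, Mmp23, Adamts1, Adamts6, Adamts17, Adamtsl2, Adamtsl3), against 10.6% of genes, and 2 below (Adamtsl4, Mmp15), against 7.06%. Of the 10, Mmp17, Adamts6, and Adamts17 met the filter of 1 TPM only through their 3 denervated samples. Their sham values were all under 1 TPM and their denervated values all above it, so the filter fixed their lack of overlap. The share of all genes was taken after the same filter.

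**Figure D2:**
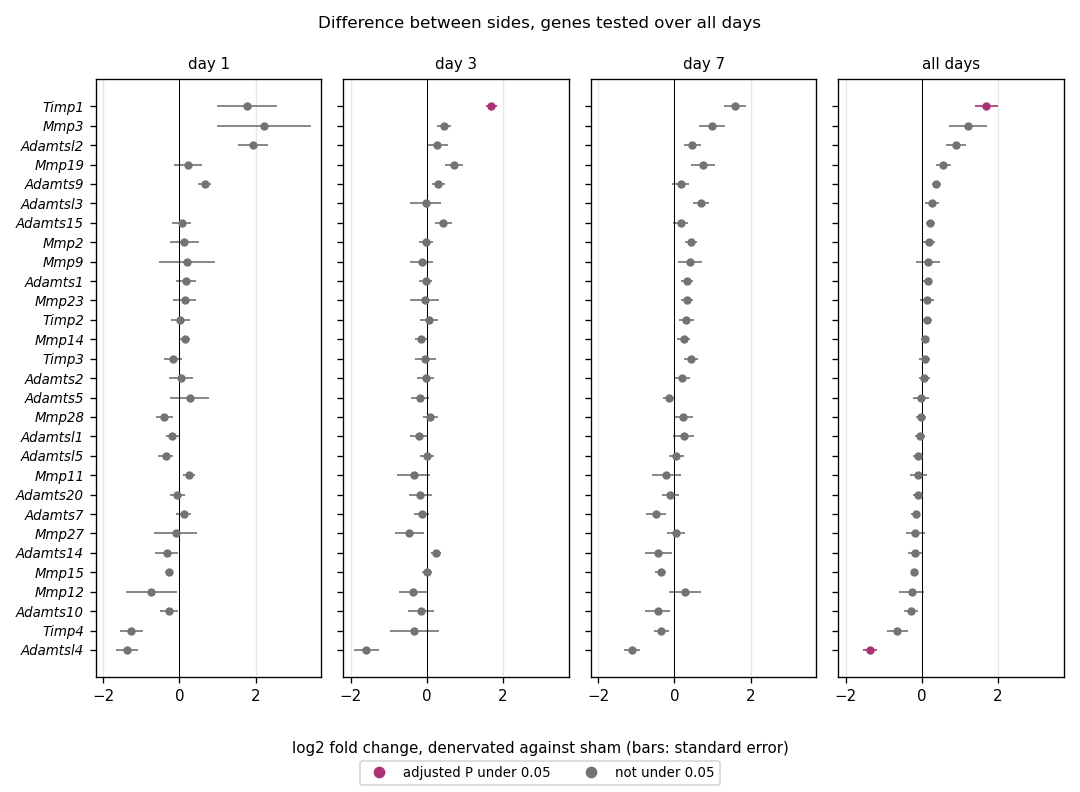
Log2 fold change of the denervated against the sham side (x axis) of the 29 members tested over all days, at days 1, 3, and 7 and over all days, as limma's estimate with its standard error on log2(TPM + 0.5). Timp1 at day 3 and over all days and Adamtsl4 over all days pass the adjusted threshold, and Mmp3 at day 1 has the longest error bar.

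Timp1, the secreted inhibitor that cells make in response to injury and cytokines, was the member called higher on the denervated side. It lies at chrX:20870166-20874735 on the + strand, inside Syn1 on the opposite strand and with no exon shared. At day 1 it was at 6.39, 9.15, and 12.3 TPM on the sham side of mice 1 to 3 and at 12.8, 119, and 21.0 TPM on the denervated side. At day 3 the sham values were 10.4, 10.4, and 10.6 TPM and the denervated values 28.2, 37.9, and 39.8 TPM. At day 7 they were 11.5, 6.84, and 5.17 TPM against 28.1, 20.9, and 21.9 TPM. Every denervated sample lay above every sham sample of its day, with mouse 2 at day 1 far above the rest. Over all days the log2 fold change was 1.69 with a standard error (SE) of 0.30 (limma, adjusted P = 0.0048), and it was 1.44 without mouse 2 of day 1 (adjusted P = 0.0009). It was 1.78 (SE 0.80, adjusted P = 1.0) at day 1, 1.69 (SE 0.14, adjusted P = 0.0047) at day 3, and 1.59 (SE 0.28, adjusted P = 0.052) at day 7 in limma. Without mouse 2 of day 1 the difference at that day was 0.85. The difference at day 7 passed in a paired fit with the mouse as a block (adjusted P = 0.017) and without mouse 1 (adjusted P = 0.035). The call at day 3 was lost without mouse 2 (adjusted P = 0.16), without mouse 3 (adjusted P = 0.13), and in a fit of all 18 samples (adjusted P = 0.17), in which the spread is shared with day 1. Both annotated transcripts are protein-coding and both were higher on the denervated side at each day. The more abundant one, with 61.7% of the TPM, averaged 4.26, 4.39, and 5.28 TPM on the sham side at days 1, 3, and 7 and 35.4, 21.6, and 13.9 TPM on the denervated side. The other averaged 5.02, 6.08, and 2.56 TPM against 15.6, 13.6, and 9.73 TPM. The neutrophil marker sum and the sum of the genes that muscle turns on without its nerve were also higher on the denervated side in every mouse. Their part in the result was not tested.

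**Figure D3:**
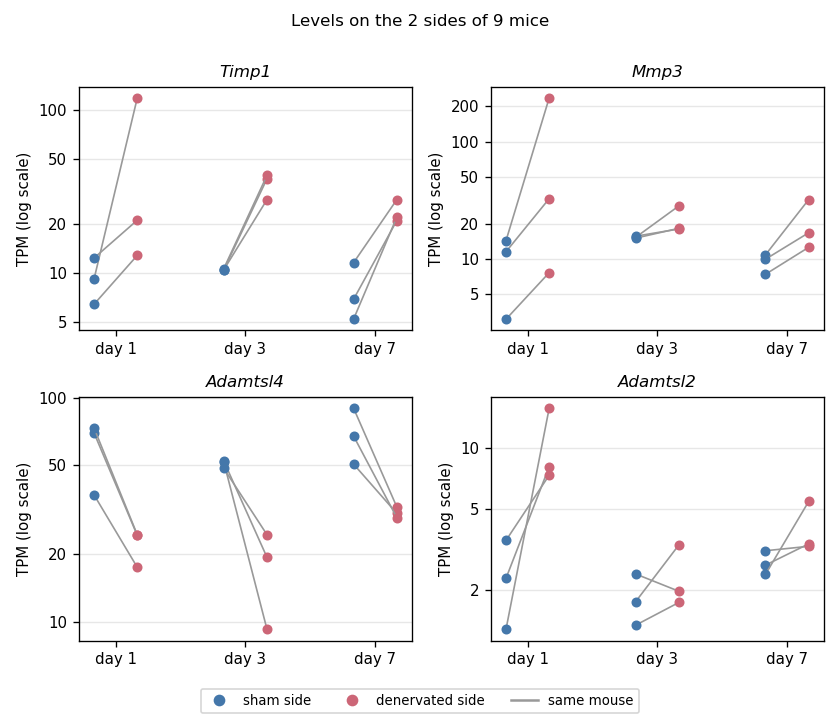
Level in TPM (log axis) of Timp1, Mmp3, Adamtsl4, and Adamtsl2 on the sham and the denervated side at days 1, 3, and 7, each line 1 of 9 mice. All 9 lines rise for Timp1 and Mmp3 and fall for Adamtsl4, and the 3 denervated samples of day 1 are the highest of all 18 for Adamtsl2.

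None of the other 3 inhibitors passed between sides. Timp2 (chr11:118301069-118355740, − strand), which also helps Mmp14 to activate Mmp2, ranged from 50.1 to 91.9 TPM on the sham side and from 59.2 to 78.9 TPM on the denervated side at day 1, from 71.6 to 124 and from 95.5 to 120 at day 3, and from 79.7 to 113 and from 89.3 to 129 at day 7. Timp3 (chr10:86300372-86349506, + strand), which binds to the matrix and also inhibits Adamts enzymes, ranged from 67.8 to 118 TPM on the sham side and from 66.1 to 88.6 on the denervated side at day 1, from 85.7 to 185 and from 118 to 135 at day 3, and from 88.0 to 129 and from 122 to 165 at day 7. The groups of both genes overlapped at each day. Their differences over all days were 0.13 (SE 0.14) for Timp2 and 0.07 (SE 0.15) for Timp3 on the log2 scale, with limma adjusted P values of 0.76 and 0.90. Timp4 (chr6:115241892-115252205, − strand), an inhibitor known from muscle, heart, and fat, was at 3.08, 5.44, and 7.79 TPM on the sham side at day 1 and at 1.71, 1.95, and 1.85 TPM on the denervated side. These groups did not overlap, but the log2 difference of −1.26 (SE 0.31) did not pass (limma, adjusted P = 1.0). At day 3 it was at 11.9, 3.66, and 3.21 TPM against 9.57, 2.23, and 3.03 TPM, and at day 7 at 8.13, 5.25, and 6.46 against 5.33, 5.73, and 4.12. The denervated sample was the lower one in 8 of 9 mice, with a difference over all days of −0.65 (SE 0.28, limma adjusted P = 0.29).

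Mmp3 (stromelysin-1), which fibroblasts and keratinocytes of wounds make and which cuts many matrix proteins and activates other Mmp proenzymes, had the widest range in TPM of all members. The gene lies at chr9:7445822-7455975 on the + strand. At day 1 it was at 3.08, 14.3, and 11.6 TPM on the sham side and at 7.68, 237, and 32.8 TPM on the denervated side. At day 3 the values were 15.7, 15.4, and 15.1 TPM against 18.1, 28.5, and 18.3 TPM, and at day 7 10.9, 9.98, and 7.43 TPM against 32.2, 16.8, and 12.6 TPM. The denervated side was the higher one in each of the 9 mice, and the groups overlapped at day 1 alone. The log2 differences were 2.22 (SE 1.24), 0.45 (SE 0.18), and 0.99 (SE 0.34) at days 1, 3, and 7, and 1.22 (SE 0.49) over all days, none of which passed in limma (adjusted P of 1.0, 0.33, 0.30, and 0.24). The largest differences of Mmp3 and of Timp1 were in the same sample, the denervated side of mouse 2 at day 1, with log2 differences of 4.00 and 3.63 within that mouse. Without it the difference of Mmp3 was 1.33 at day 1 and 0.87 over all days (adjusted P of 1.0 and 0.20).

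Mmp11 (stromelysin-3), known from stromal fibroblasts, did not pass, with the denervated side higher in 4 of 9 mice. Its groups averaged 23.8 ± 4.18 TPM (SD, n = 3) on the sham side and 28.2 ± 2.98 on the denervated side at day 1, 21.6 ± 12.4 and 15.8 ± 5.85 at day 3, and 15.5 ± 4.26 and 14.04 ± 6.07 at day 7. Mmp10 (stromelysin-2) and Mmp7 (matrilysin) lay under the limit. Among the gelatinases, which cut denatured collagen, Mmp2 was at 55.2, 127, and 143 TPM on the sham side and at 88.9, 123, and 121 on the denervated side at day 1. It was at 169, 139, and 101 against 126, 125, and 143 TPM at day 3, and at 127, 119, and 89.7 against 158, 154, and 141 TPM at day 7. Day 7 was the 1 day at which its groups did not overlap, and the log2 difference there of 0.44 (SE 0.15) did not pass (limma, adjusted P = 0.32). Mmp9, the gelatinase of neutrophils and keratinocytes, ranged from 0.979 to 8.55 TPM and was higher on the denervated side in 5 of 9 mice. Its highest value was in a sham sample, that of mouse 3 at day 1, in which the neutrophil marker sum was also the highest of the sham side at 965 TPM.

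Among the membrane-type enzymes, Mmp14 had group means of 44.1 ± 6.47 and 48.8 ± 3.10 TPM (SD, n = 3) on the sham and denervated sides at day 1, 54.0 ± 10.98 and 47.7 ± 3.45 at day 3, and 45.1 ± 2.08 and 54.5 ± 12.8 at day 7. Its difference over all days was 0.08 on the log2 scale (SE 0.10, limma adjusted P = 0.81). Mmp15 was at 5.01 to 8.03 TPM in all samples and lower on the denervated side in 8 of 9 mice, by 0.21 on average (SE 0.07, adjusted P = 0.14), with groups apart at days 1 and 7. Mmp17, which a lipid anchor holds to the membrane, was at 0.925, 0.515, and 0.661 TPM on the sham side at day 7 and at 1.91, 1.27, and 2.02 TPM on the denervated side. At day 3 its denervated values of 0.934, 1.21, and 1.31 TPM also lay above the sham values of 0.539, 0.661, and 0.559, while at day 1 it was lower on the denervated side in 3 of 3 mice. The difference at day 7 of 0.89 (SE 0.27) did not pass in the fit of 6 samples (limma, adjusted P = 0.24) and passed in that of all 18 (adjusted P = 0.034). At day 7 only its denervated values reached the filter of 1 TPM. Mmp17 thus entered both fits through the side where it was high, and the pass adds no support. Mmp16 stayed between 0.200 and 1.08 TPM, and Mmp25 and Mmp24 lay under the limit.

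The collagenases, which make the first cut in fibrillar collagen, were near the limit of description. Mmp13 and Mmp8 averaged 0.705 and 0.657 TPM, and 0.476 and 0.634 TPM without the sham side of mouse 3 at day 1, so 1 sample decided their order and put Mmp13 above the limit of 0.5 TPM. Mmp13 was at 0.0523, 0.143, and 4.61 TPM on the sham side and at 0.230, 1.75, and 1.01 on the denervated side at day 1. It was at 0.8002, 1.22, and 0.141 against 0.192, 0.725, and 0.269 TPM at day 3 and at 0.0753, 0.133, and 0.227 against 0.454, 0.398, and 0.262 TPM at day 7, where its groups did not overlap but were too low to be tested. Mmp8, the collagenase of neutrophils, ranged from 0.170 to 2.82 TPM. The highest values of both were on the sham side, Mmp13 in mouse 3 at day 1 and Mmp8 in mouse 1 at day 3. Mmp8 was not tested at any day for its low values, though at day 7 its denervated values of 0.965, 0.485, and 0.436 TPM all lay above the sham values of 0.376, 0.184, and 0.287 TPM. Of the remaining Mmp genes, Mmp19, found in skin and macrophages, was higher on the denervated side in 8 of 9 mice. It was at 5.39, 5.33, and 2.92 TPM on the sham side at day 3 and at 7.04, 8.18, and 7.30 TPM on the denervated side, which did not overlap. Its difference over all days was 0.56 (SE 0.20, limma adjusted P = 0.16), and it passed with the mouse as a block (adjusted P = 0.032). Mmp23, the most abundant of this class, averaged 6.58 ± 3.03 TPM on the sham side and 6.85 ± 0.628 on the denervated side at day 1, 11.3 ± 5.22 and 10.7 ± 3.72 at day 3, and 10.6 ± 2.0 and 13.3 ± 0.880 at day 7 (SD, n = 3). Mmp28 (epilysin, of keratinocytes) averaged 3.27 TPM, Mmp12 (the elastase of macrophages) 3.24, and Mmp27 1.42 TPM, and none of these 4 genes passed at any day or over all days. The level of Mmp12 rests mostly on 1 transcript annotated for nonsense-mediated decay, with 76.2% of its TPM.

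**Figure D4:**
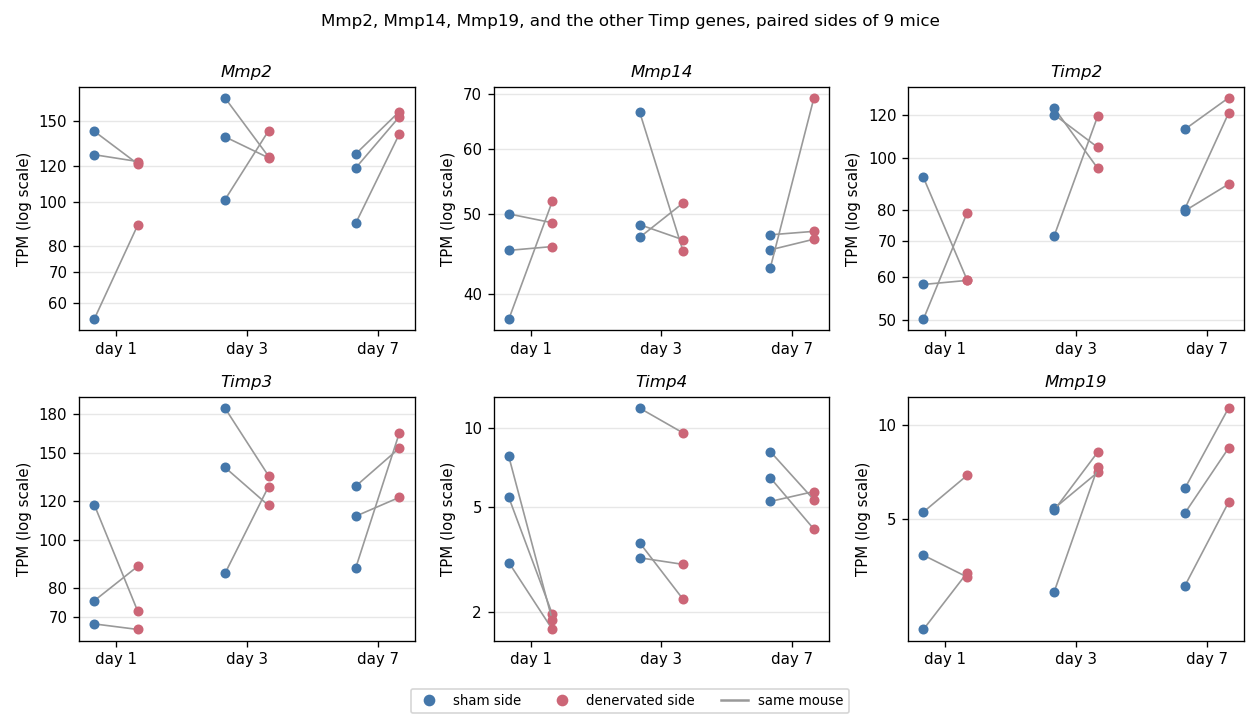
Level in TPM (log axis) of Mmp2, Mmp14, Timp2, Timp3, Timp4, and Mmp19 on the sham and the denervated side at days 1, 3, and 7, each line 1 of 9 mice. At days 1 and 3 the lines of Timp2 and Timp3 run both up and down, and at day 1 all 3 denervated samples of Timp4 lie between 1.71 and 1.95 TPM, under the sham samples.

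No Adamts gene passed between sides: limma called 0 of the 9 tested over all days, where 3.1% of all genes passed. Of the 9, 1 was under an unadjusted P of 0.05, as were 14.7% of all genes. Among the proteoglycanases, which cut aggrecan and versican, Adamts1 was the most abundant. It was at 9.59, 10.02, and 13.5 TPM on the sham side and at 13.8, 15.99, and 8.40 on the denervated side at day 1, at 12.8, 17.3, and 10.9 against 11.5, 14.1, and 13.8 at day 3, and at 13.2, 11.4, and 10.2 against 13.7, 16.98, and 13.2 at day 7. The groups of day 7 all but touched, and those of days 1 and 3 overlapped. Adamts9 was at 2.43, 2.72, and 3.07 TPM on the sham side at day 1 and at 4.16, 5.59, and 4.18 TPM on the denervated side, which did not overlap. Its log2 differences of 0.66 at day 1 (SE 0.17) and 0.38 over all days (SE 0.11) did not pass (limma, adjusted P of 1.0 and 0.089). The latter passed without mouse 1 of day 7 (adjusted P = 0.029). Adamts4, at 0.343 to 1.98 TPM, was too low to be tested, and its highest value was again the denervated side of mouse 2 at day 1. Adamts5 averaged 5.55, Adamts15 2.60, and Adamts20 1.55 TPM, with the denervated side higher in 3, 6, and 3 of 9 mice.

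The procollagen N-proteinases, which remove the amino-terminal propeptide of fibrillar procollagens, were Adamts14 at 8.33 TPM and Adamts2 at 6.25 TPM on average, with Adamts3 under the limit. Adamts14 was the member of this class with the highest level. Its groups averaged 8.28 ± 1.87 and 6.67 ± 2.87 TPM on the sham and denervated sides at day 1, 8.23 ± 0.995 and 9.80 ± 1.11 at day 3, and 10.05 ± 5.01 and 6.98 ± 1.92 at day 7 (SD, n = 3), so the direction differed between days and the larger of the 2 SDs exceeded the difference at days 1 and 7. Among the other Adamts genes, Adamts10, whose product binds fibrillin microfibrils, was at 9.92, 14.2, and 15.7 TPM on the sham side and at 8.23, 10.9, and 13.8 on the denervated side at day 1. It was at 10.1, 15.6, and 11.9 against 6.38, 13.6, and 15.4 TPM at day 3 and at 11.2, 19.9, and 18.8 against 7.86, 11.7, and 17.8 TPM at day 7. All 3 pairs of groups overlapped, though the denervated side was lower in 8 of 9 mice. Adamts17 was at 0.248, 0.705, and 0.408 TPM on the sham side at day 7 and at 1.18, 2.19, and 1.37 TPM on the denervated side, a log2 difference of 1.12 (SE 0.32) that did not pass (limma, adjusted P = 0.21). It was tested at that day only because its denervated values were above the filter of 1 TPM. Adamts6, Adamts7, Adamts12, and Adamts18 averaged 0.532 to 1.40 TPM and, where tested, passed at no day.

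Adamtsl4, whose product binds fibrillin-1 and is known from the ligament that holds the eye lens, was the member called lower. It lies at chr3:95676201-95687917 on the − strand. On the sham side it was at 36.8, 69.6, and 73.2 TPM at day 1, 51.6, 52.1, and 48.4 at day 3, and 50.6, 89.9, and 67.5 at day 7. On the denervated side it was at 17.5, 24.3, and 24.4 TPM, 9.24, 19.4, and 24.5 TPM, and 30.5, 32.6, and 29.2 TPM. Every one of the 9 denervated values was under every one of the 9 sham values. The log2 difference over all days was −1.36 (SE 0.18, limma adjusted P = 0.00034). The differences at days 1, 3, and 7 were −1.37 (SE 0.29), −1.60 (SE 0.33), and −1.12 (SE 0.21), with limma adjusted P values of 0.80, 0.091, and 0.061 in the fits of 6 samples. The value at day 7 passed with the mouse as a block (adjusted P = 0.036), and that of day 3 passed in the fit of all 18 samples (adjusted P = 0.013). The fall was on both coding and non-coding transcripts. The main protein-coding transcript averaged 21.4, 20.7, and 26.5 TPM on the sham side at days 1, 3, and 7 and 6.62, 7.42, and 10.9 TPM on the denervated side. The main processed transcript averaged 28.9, 22.3, and 31.4 TPM against 10.7, 4.83, and 14.1 TPM. With protein-coding transcripts alone the difference over all days was −1.33 (adjusted P = 0.0003). The neutrophil marker sum and the sum of the genes that muscle turns on without its nerve were higher on the denervated side in the same 9 mice. Their part in the result was not tested.

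Adamtsl2, whose product binds fibrillin and the carrier protein of TGF-β, stood out at day 1. It lies at chr2:27079379-27108981 on the + strand and was at 2.27, 3.502, and 1.27 TPM on the sham side and at 8.11, 7.36, and 15.8 TPM on the denervated side, with every denervated sample above every sham sample of all days. At day 3 it was at 1.34, 2.39, and 1.75 against 1.73, 1.97, and 3.33 TPM, and at day 7 at 2.64, 3.12, and 2.38 against 3.37, 3.28, and 5.45 TPM. The difference at day 1 of 1.93 (SE 0.39) did not pass in the fit of 6 samples (limma, adjusted P = 0.79) and passed in the fit of all 18 (adjusted P = 0.023). Over all days it was 0.89 (SE 0.26, adjusted P = 0.072). The difference between sides was smaller at day 3 than at day 1 by 1.66 (SE 0.47), which did not pass the test of that change (limma, adjusted P = 0.24). The level rested on retained-intron transcripts, of which 2 held 66.9% and 21.0%, while the protein-coding transcript averaged 0.218 TPM on the sham side and 1.03 TPM on the denervated side at day 1.

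The other 3 Adamtsl genes did not pass. Adamtsl5 was at 22.9 to 42.9 TPM in all samples, with the denervated side higher in 4 of 9 mice and a log2 difference over all days of −0.10 (SE 0.12). Adamtsl1 was at 2.77 to 5.83 TPM, with a difference of −0.05 (SE 0.14). Adamtsl3 was at 0.968 to 1.25 TPM on the sham side and 1.88 to 2.46 TPM on the denervated side at day 7, a difference of 0.70 (SE 0.21) that did not pass (limma, adjusted P = 0.24).

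The ratio of all Mmp to all Timp TPM showed no difference between sides that exceeded the spread of the mice. It averaged 1.33 ± 0.341 on the sham side and 1.56 ± 0.4502 on the denervated side at day 1, 1.06 ± 0.156 and 0.932 ± 0.0294 at day 3, and 1.03 ± 0.199 and 0.993 ± 0.0712 at day 7 (SD, n = 3). The log2 ratio of the denervated against the sham side averaged 0.0021 ± 0.291 (SD) over 9 mice and was above 0 in 5 of them (exact sign-flip permutation test, two-sided, P = 0.99, where 0.0039 is the smallest P that 9 mice can give).

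From day 1 to day 3 on the denervated side limma called 3 of 30 members tested, against 11.6% of all genes, 8.04% higher and 3.54% lower, so the share of members called was near that of all genes. Timp3 rose by 0.75 (SE 0.15, adjusted P = 0.017) and Timp2 by 0.70 (SE 0.17, adjusted P = 0.038) on the log2 scale, and Adamtsl2 fell by 1.90 (SE 0.33, adjusted P = 0.011). In TPM the denervated samples of Timp3 were at 66.1 to 88.6 at day 1 and 118 to 135 at day 3, those of Timp2 at 59.2 to 78.9 and 95.5 to 120, and those of Adamtsl2 at 7.36 to 15.8 and 1.73 to 3.33, and the ranges of the 2 days did not overlap for any of the 3. The calls of Timp3 and Timp2 were lost with the values rescaled to an equal sum per sample (adjusted P of 0.056 and 0.12), which moved the median of all genes by −0.14, and with the mouse as a random block (adjusted P of 0.086 and 0.11). Both were also lost without mouse 2 or 3 of day 1 and without mouse 2 or 3 of day 3, and Timp2 without mouse 1 of day 3 or mouse 2 of day 7. Without mouse 2 of day 1, Timp1 (1.06, adjusted P = 0.045) and Mmp19 (1.07, adjusted P = 0.046) passed. The muscle fiber marker sum moved with them, from 9083 to 19500 TPM at day 1 to 22430 to 27270 at day 3 on the denervated side. Other marker sums there also lay higher at day 3 with no overlap: macrophage markers were at 131 to 156 TPM at day 1 and 262 to 463 at day 3, adipocyte markers at 150 to 236 and 331 to 608, and endothelium markers at 74.6 to 83.1 and 104 to 127. Fibroblast markers, at 661 to 975 and 898 to 1526 TPM, overlapped. The part of these cell types in the result was not tested.

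On the sham side the change of the same 2 inhibitors was of like size and did not pass, at 0.66 (SE 0.29, limma adjusted P = 0.45) for Timp2 and 0.62 (SE 0.31, adjusted P = 0.50) for Timp3. The change on the denervated side exceeded that on the sham side by 0.04 (SE 0.35) for Timp2 and by 0.13 (SE 0.36) for Timp3 (limma, adjusted P of 0.99 and 0.97). From day 1 to day 3 on the sham side 0 of 28 members passed in limma, against 0.0818% of all genes, and 1 was under an unadjusted P of 0.05, as were 10.9% of all genes. From day 3 to day 7, 0 of 28 passed in limma on the sham side, against 0.0136% of genes, and 0 were under an unadjusted P of 0.05, against 10.9%. On the denervated side 0 of 30 passed, against 0.211% of genes, and 6 were under an unadjusted P of 0.05, as were 2061 of 14701 genes.

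Genes that act with these enzymes were read from lists of 30 activators, inhibitors, and related proteases and of 21 matrix substrates. Of 27 tested in the first list, limma called 0 between sides over all days, where 3.1% of all genes passed. It also called 0 at days 1, 3, and 7, where 0%, 1.45%, and 1.53% of all genes passed. At unadjusted P under 0.05 there were 5 over all days, where 14.7% of all genes were, and 0, 1, and 7 at days 1, 3, and 7, where 4.29%, 14.7%, and 12.3% of all genes were. Of 17 tested substrates it called 0 over all days and at days 1 and 3, with 1, 0, and 0 under an unadjusted P of 0.05, and 1 at day 7, the cartilage and tendon matrix gene Comp, whose log2 difference was 1.70 (SE 0.22, adjusted P = 0.017). From day 1 to day 3 on the denervated side 3 of 27 in the first list passed, a share near the 11.6% of all genes: the tissue plasminogen activator Plat (0.83, limma adjusted P = 0.035) and the Mmp inducer Bsg (0.58, adjusted P = 0.023) rose and the sheddase Adam12 (−1.26, adjusted P = 0.048) fell. Among the substrates 2 of 17 rose there, where 8.04% of all genes did: Comp (1.81, adjusted P = 0.0076) and Vwf (1.25, adjusted P = 0.0028), the latter the substrate of Adamts13, which itself lay under the limit of 0.5 TPM in every sample. The substrates also moved on the sham side between these days. At unadjusted P under 0.05 there were 8 of 17 on the sham side, where 10.9% of all genes were. On the denervated side there were 9 of 17, where 29.1% of all genes were. The median log2 fold change over all days was 0.07 in the first list and 0.18 among the substrates, against 0.01 over all genes tested.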

How the data were processed

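RNA was measured in 18 samples, 3 in each of 6 groups. Per the labels and the study's methods, the authors made libraries with the TruSeq kit, base-called with bcl2fastq 2.17.1.14, removed duplicates, trimmed adapters, and pseudoaligned reads to GRCm38 cDNA with kallisto 0.43.1 and sleuth. The deposited values are a signal: TPM that the authors normalized between samples, with sums of 833186 to 1143839. The tests had been chosen for plain TPM and were kept. By identifier 98.46% of 113194 transcripts, with 99.48% of the summed values, matched GENCODE M21, and values were summed per gene. Depth is an estimate and describes counting error only.

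Genes with at least 1 TPM in 47% of the samples compared were tested with limma 3.58.1 (R 4.3.3, moderated test with trend) on log2(TPM + 0.5), so that the change of low genes is understated, and adjusted after Benjamini and Hochberg over all genes, at 0.05. Days were fitted with 6 samples, all days with 18 and a day term, and changes within a side with 9. The 2 sides came from the same mouse, and deviations of the same mouse correlated at 0.13 to 0.51 at every day, so the mouse was a block in an alternative. The tests were tried on simulated data. Members, gene lists, and named genes (all described members, with each group's values for those called, all Timp genes, and the highest of each class) were chosen with earlier results of these data known. P values of the main fits between sides measure the spread between samples, with the 2 sides of a mouse taken as independent. Those of the same comparisons with the mouse as a block, and of the sign-flip test, measure the spread of differences within mice. Changes within a side had 1 sample per mouse, so their P values measure the spread between mice. A planned count of protein motifs was not run. Figures were drawn with matplotlib 3.10.9, and tables were joined with pandas 2.3.3 in Python 3.11.15 (scipy 1.17.1, numpy 2.4.6).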

Additional observations from a re-analysis of the deposited data

How the results depend on the processing

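The counts of called members were recomputed with pseudocounts of 0.1 and 1, minimum values above 0 and of 5, 2 rescalings, no trend, the mouse as a block, a fit of all 18 samples, single transcripts, leaving out each mouse, and, added after the data were seen, protein-coding transcripts only. Of 191 such counts, 173 stayed within 1.5 times the reported one. At day 1, the fit of all 18 samples called 1 member (Adamtsl2) in place of 0. At day 3, single transcripts called 0 in place of 1, and leaving out a mouse gave 0 to 1, with Timp1 lost without mouse 2 or mouse 3. At day 7, 0 became 1 with a pseudocount of 1, a minimum of 5, median-of-ratios factors, an equal sum, all 18 samples, and single transcripts, became 2 with the replicate block (Timp1 and Adamtsl4) and with protein-coding transcripts only, and was 0 to 1 without a mouse (1 without mouse 1). The member called at day 7 by the fit of all 18 samples was Mmp17, which met the filter only through its denervated samples. Over all days leaving out a mouse gave 2 to 3 against 2. From day 1 to day 3 on the denervated side, 3 became 1 with an equal sum and with single transcripts, and 1 to 4 without a mouse: it was 1 without mouse 3 of day 1, mouse 2 of day 3, or mouse 3 of day 3. The 3 tests of a change in the difference between sides, both sham comparisons, and day 7 against day 3 on the denervated side gave 0 under every alternative run. The mouse as a block otherwise added Mmp19 over all days and Mmp17 from day 1 to day 3 on the denervated side. Of 592 values of single genes recomputed, 0 changed direction where the reported or the alternative value passed, 17 lost their call, and 17 gained one. Fits without a mouse have fewer degrees of freedom, and the cause of the shifts was not tested.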
